A study of Mus musculus with 4 samples.

Results

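The platelet-derived growth factor (PDGF) family comprises 2 receptor genes, Pdgfra and Pdgfrb, and 4 ligand genes, Pdgfa, Pdgfb, Pdgfc and Pdgfd. They were taken by symbol from the gene list shared by 4 single-cell libraries of mouse submandibular gland, and all 6 were found among its 31053 genes. The libraries were made on the 10x Genomics platform from glands of female C57BL6/J mice, after enzymatic dissociation, magnetic depletion of epithelial (EpCAM) and red blood cells (Ter119) and removal of dead cells. In the 2 deligated libraries a metal clip had closed the main ducts for 14 days and had then been removed for 5 days before harvest at an age of 14 weeks. The 2 homeostatic libraries came from mice of 12 weeks without surgery, so that age differs along with the operation. The protocols speak of 2 glands and name the sublingual gland beside the submandibular gland, the tissue labels name the submandibular gland alone, and the number of animals behind each library is not given. The deligated matrices carry a header of Cell Ranger 6.0.1 and the homeostatic matrices one of Cell Ranger 7.0.0, so that the version cannot be told apart from the group.

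PDGFs are secreted dimers that bind 2 receptor tyrosine kinases. PDGF-A and PDGF-C act mainly through the alpha receptor, PDGF-B through both receptors and PDGF-D mainly through the beta receptor, while PDGF-C and PDGF-D are secreted as latent proteins that proteases must cleave. In many tissues fibroblasts carry the alpha receptor, and endothelial PDGF-B recruits pericytes, the contractile cells on capillaries, through the beta receptor.

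On the mouse genome GRCm38 (GENCODE M21), Pdgfra lies on chromosome 5 (75152292 to 75198215, plus strand), as does Pdgfa (138976014 to 138997370, minus strand). Pdgfb lies on chromosome 15 (79995874 to 80014977, minus strand), Pdgfc on chromosome 3 (81036416 to 81214040, plus strand) and Pdgfd on chromosome 9 (6168584 to 6378850, plus strand). Pdgfc and Pdgfd are the genes with long introns, 172.5 and 207.1 kb in total, against 14.9 kb for Pdgfb, 18.2 kb for Pdgfa, 34.4 kb for Pdgfrb and 35.9 kb for Pdgfra. None overlaps another annotated gene on its own strand. All but Pdgfrb overlap a gene on the opposite strand, and no source used here says whether counting used strand.

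RefSeq promoter sequences were held for 4 of the 6 genes. Those of Pdgfra, the receptor held almost wholly by fibroblast-like cells, and of Pdgfd, a ligand that differed between the groups in several classes, are shown as the 250 bases before the RefSeq start (GRCm38.p6, plus strand, 5′ to 3′), at chr5:75152001-75152250 and chr9:6168236-6168485. Capitals mark a match to any of 4 motifs searched on both strands without overlap between them: the GC box GGGCGG, the Egr1 core GCGNGGGCG, the CCAAT box CCAAT and the TATA box TATAAA.
Pdgfra: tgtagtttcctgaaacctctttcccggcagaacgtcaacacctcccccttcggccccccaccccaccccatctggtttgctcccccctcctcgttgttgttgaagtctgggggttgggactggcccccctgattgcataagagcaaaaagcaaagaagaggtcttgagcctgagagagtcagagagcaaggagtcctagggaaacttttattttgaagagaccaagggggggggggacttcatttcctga
Pdgfd: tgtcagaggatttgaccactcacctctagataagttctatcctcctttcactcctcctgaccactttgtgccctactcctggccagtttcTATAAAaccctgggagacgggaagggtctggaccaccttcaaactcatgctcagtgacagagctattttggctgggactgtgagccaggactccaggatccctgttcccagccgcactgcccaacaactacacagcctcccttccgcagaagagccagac
Neither stretch touches an annotated exon. The Pdgfd stretch held 1 TATA box match, a motif found in 12.4% of the 32851 promoters of this length, and no other match. The match lies nearer the far end of the stretch than the RefSeq start, and its use as a TATA box was not tested. The Pdgfra stretch held no match to the 4 motifs, which occurred in 32.7% (GC box), 4.7% (Egr1 core), 33.8% (CCAAT box) and 12.4% (TATA box) of promoters. Their GC contents, 54.4% for Pdgfra and 53.6% for Pdgfd, lay near the median promoter at 52.4%.

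Of 39558 barcodes, 33695 were retained (4357 and 7823 deligated, 10615 and 10900 homeostatic), with 82.2% to 92.2% retained per library, and any pair of libraries shared 14 to 54 barcodes. Total counts were 35662241 and 53898793 UMIs (unique molecular identifiers, an estimate of RNA molecules) in the deligated libraries and 53633980 and 52379402 in the homeostatic libraries. Clusters were named by resemblance to marker lists that held none of the 6 genes. Fibroblast-like cells numbered 349 and 690 in the deligated and 264 and 265 in the homeostatic libraries, and summed fibroblast markers lay at 29520 to 42990 CPM there against 489 to 1072 CPM in mural-like cells (CPM, UMIs scaled to a total of 1000000 in a class and library). Mural-like cells, the pericytes and smooth muscle of vessel walls, numbered 323, 452, 124 and 105, and endothelial-like cells 1883, 3103, 3500 and 3443. Epithelial-like cells, which the depletion targets, made up 1.24% and 2.06% of deligated but 33.8% and 35.2% of homeostatic cells.

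Pdgfra marked fibroblast-like cells in every library. Its level in them was 1053 and 1417 in the deligated and 1268 and 1349 in the homeostatic libraries (CPM). These values interleave between the groups. Among the other 7 classes whose levels were ranked, each with at least 20 cells in every library, the highest value was 18.1 CPM, in deligated epithelial-like cells (7 UMIs). Schwann-like cells held no UMI in any library. They numbered 24, 61, 34 and 32 (deligated 1 and 2, homeostatic 1 and 2), too few to show absence. Fibroblast-like cells were 8.01%, 8.82%, 2.49% and 2.43% of cells (deligated 1 and 2, homeostatic 1 and 2) and held 98.1%, 96.9%, 98.5% and 98.5% of all Pdgfra UMIs. Below them the order of the classes from epithelial-like to NK/innate lymphoid-like had overlapping library ranges at each step.

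Pdgfrb, on chromosome 18 (61045150 to 61085061, plus strand), was shared by mural-like and fibroblast-like cells. Mural-like cells gave 817 and 884 CPM in the deligated and 801 and 719 CPM in the homeostatic libraries. Within them the cluster with pericyte markers lay at 1476, 1520, 1540 and 1387 CPM and the cluster with smooth muscle markers at 431, 529, 443 and 498 CPM, without overlap between the clusters in any library. Fibroblast-like cells followed at 301 and 333 CPM (deligated) and 243 and 236 CPM (homeostatic), below the mural-like level in 4 of 4 libraries. No other class of the 8 passed 19.3 CPM, and the ranges from epithelial-like cells downwards overlapped at each step. Mural-like cells held 48.9% to 55.9% of all Pdgfrb UMIs and fibroblast-like cells 42.2% to 48.3%. That order turned with stricter cells (at least 1000 UMIs and 500 genes, at most 5% mitochondrial UMIs), where fibroblast-like cells led with 54.7%, 55.4%, 54.9% and 62.0% and mural-like cells, then 147, 249, 71 and 49 cells without a cluster named smooth muscle-like, held 43.3%, 40.7%, 43.8% and 36.1%. Without doublet removal fibroblast-like cells led in homeostatic 2 alone (49.4% against 48.9%).

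**Figure D1:**
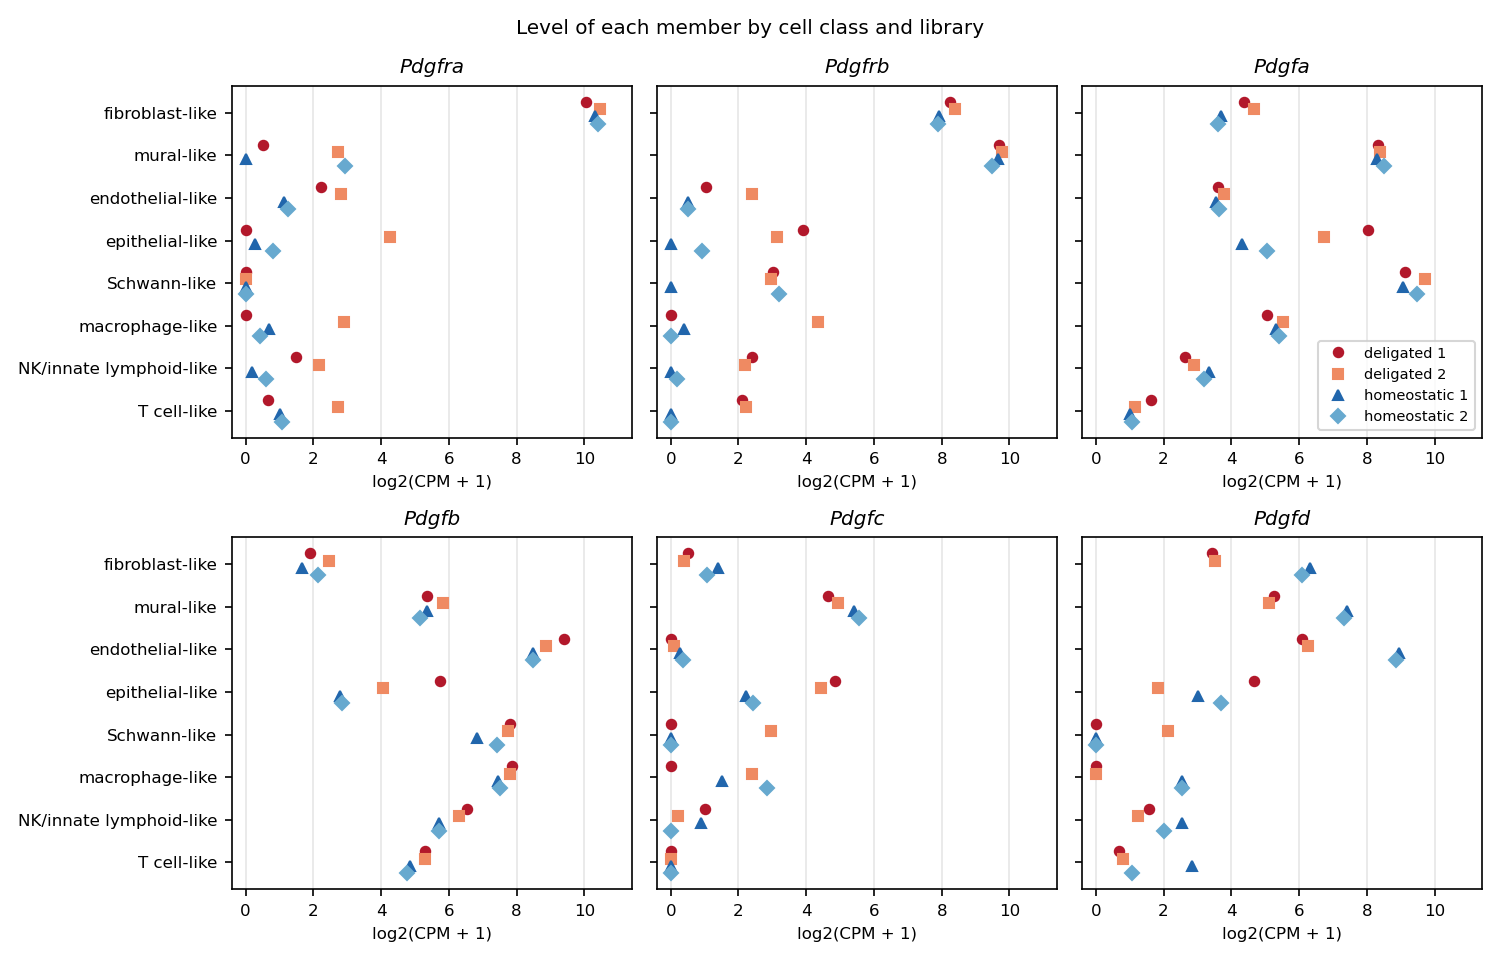
Level of each of the 6 genes, as log2(CPM + 1), in 8 cell classes; each point is 1 library (red circle and orange square deligated 1 and 2, dark blue triangle and light blue diamond homeostatic 1 and 2). Pdgfra stands out in fibroblast-like cells (1053 to 1417 CPM), Pdgfrb in mural-like (719 to 884 CPM) and fibroblast-like cells, and Pdgfd is the gene whose 2 groups of points are furthest apart in endothelial-like, mural-like and fibroblast-like cells.

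Fibroblast-like cells carried both receptors in the same cell, and mural-like cells almost only the beta receptor. Since depth differs between cells, each cell was thinned to 1000 UMIs before cells with at least 1 UMI were counted. In fibroblast-like cells Pdgfra was then seen in 65.0%, 72.9%, 67.8% and 70.9% of cells (deligated 1 and 2, homeostatic 1 and 2) and Pdgfrb in 29.5%, 26.3%, 20.5% and 18.5%. Both were seen in 20.3% of 349 cells (exact Clopper-Pearson 95% interval 16.2% to 25.0%) and 20.5% of 689 cells (17.5% to 23.7%) in the deligated libraries, and in 14.0% of 264 cells (10.1% to 18.8%) and 15.5% of 265 cells (11.3% to 20.4%) in the homeostatic libraries. The product of the separate shares is 19.2%, 19.1%, 13.9% and 13.1%, so that the observed share was above the product in 4 of 4 libraries while each product lay inside the interval of its observed share. The intervals cover counting error only.

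Without thinning, both receptors were seen in 92.8% and 89.4% of deligated and in 70.8% and 72.8% of homeostatic fibroblast-like cells, and Pdgfra alone accounted for nearly all others, since at least 99.6% of cells in each library had a Pdgfra UMI. Median depths of these cells were 13234 and 9302 UMIs (deligated) and 6838.5 and 6643 UMIs (homeostatic). At equal depth, 1000 UMIs, the share with both receptors was also higher in both deligated libraries than in both homeostatic ones. Fewer than 1 Pdgfrb UMI is expected per cell there, so that no change between the groups is read from these shares.

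In mural-like cells thinned to 1000 UMIs, Pdgfrb was seen in 52.4%, 57.9%, 59.3% and 57.3% of cells. Both receptors were seen in 1 of 317, 1 of 442, 0 of 118 and 1 of 103 cells, where 0 of 118 (a limit of 3 counts) allows up to 2.54% of cells with UMIs of both at this depth, which does not limit the share of cells that express both. By cluster, Pdgfrb was seen in 74.5%, 77.4%, 82.1% and 79.0% of pericyte-like cells and in 31.7%, 40.0%, 38.7% and 44.6% of smooth muscle-like cells. Without thinning, 1, 10, 0 and 1 mural-like cells had both receptors, 9 of the 10 cells of deligated 2 being smooth muscle-like. NK/innate lymphoid-like cells, which should lack both receptors, gave the background: Pdgfra in 0.109%, 0.425%, 0% and 0.18% and Pdgfrb in 0.109%, 0.283%, 0% and 0% of cells at 1000 UMIs, with median depths before thinning of 5960, 5509, 6200 and 6163.5 UMIs. Pdgfra in mural-like cells (0.316%, 0.226%, 0% and 0.971%, which is 1, 1, 0 and 1 cells) is not distinguishable from that background at this depth.

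**Figure D2:**
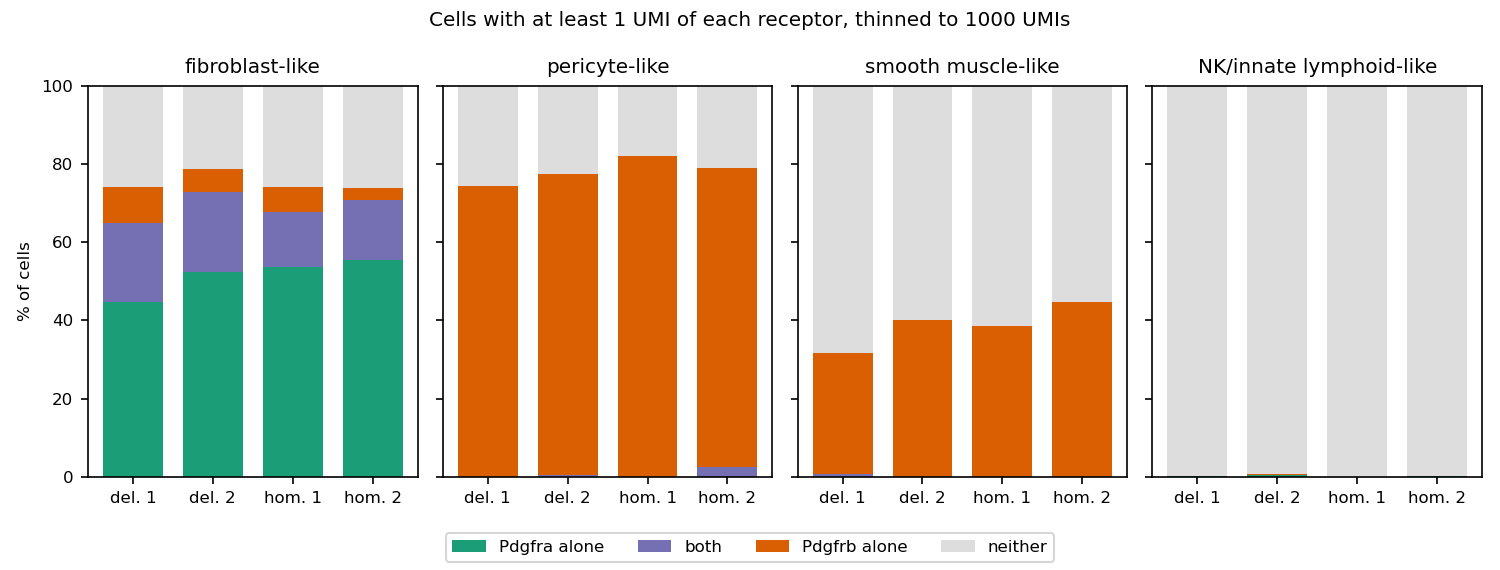
Share of cells in % with at least 1 UMI of Pdgfra alone, of both receptors, of Pdgfrb alone or of neither, after thinning to 1000 UMIs, in 4 cell populations; each bar is 1 library (del., deligated; hom., homeostatic). Fibroblast-like cells show all 4 states (14.0% to 20.5% with both), pericyte-like and smooth muscle-like cells hold Pdgfrb almost without Pdgfra, and NK/innate lymphoid-like cells hold almost none of either.

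The comparison asks how the family differs between glands 5 days after release of a blocked duct and glands without surgery. No library came from glands still ligated or from sham surgery, so that blockage, release, surgery and age cannot be told apart. Summed UMIs per class and library were tested with edgeR's quasi-likelihood test with Benjamini-Hochberg adjustment at 0.05, in the 5 classes with at least 100 cells in every library. With 2 libraries a group the p-values measure the spread between these libraries, since nothing says that they came from separate animals, and an exact two-sided permutation test could not fall below 0.333. In fibroblast-like cells 3 of the 5 members tested passed the threshold, Pdgfrb, Pdgfa and Pdgfd, beside 25.6% of all genes tested. In mural-like cells 1 of 5 passed, Pdgfd, beside 8.2%. In endothelial-like cells Pdgfb, Pdgfd and, at a few CPM, Pdgfra passed, beside 35.1%, and in NK/innate lymphoid-like cells Pdgfb and Pdgfd passed, beside 41.3% of all genes in either direction and 15.8% upwards. Pdgfrb in both of these classes and Pdgfra in NK/innate lymphoid-like cells met the minimum count through the deligated libraries alone, so that a difference was built into their selection and their calls are not counted here. In T cell-like cells Pdgfb alone had enough counts to be tested, where 17.6% of all genes passed and 4.19% passed upwards. Deligated and homeostatic fibroblast-like cells lay in different clusters, 99.6% of the former in cluster 8 and 93% of the latter in cluster 17. Endothelial-like cells divided likewise (85.6% of deligated cells in cluster 1, 73.5% of homeostatic cells in cluster 0), and so did NK/innate lymphoid-like cells (78.1% in cluster 4, 91.8% in cluster 5), whereas both mural-like clusters held cells of both groups. At Leiden resolution 2.0 the mural-like cells divided too, with 407 deligated and 19 homeostatic cells, 368 and 4, and 0 and 206 in their 3 clusters. The Cell Ranger version follows the group, and no batch correction was run. What the version contributes to these divisions cannot be told apart from the group.

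**Figure D3:**
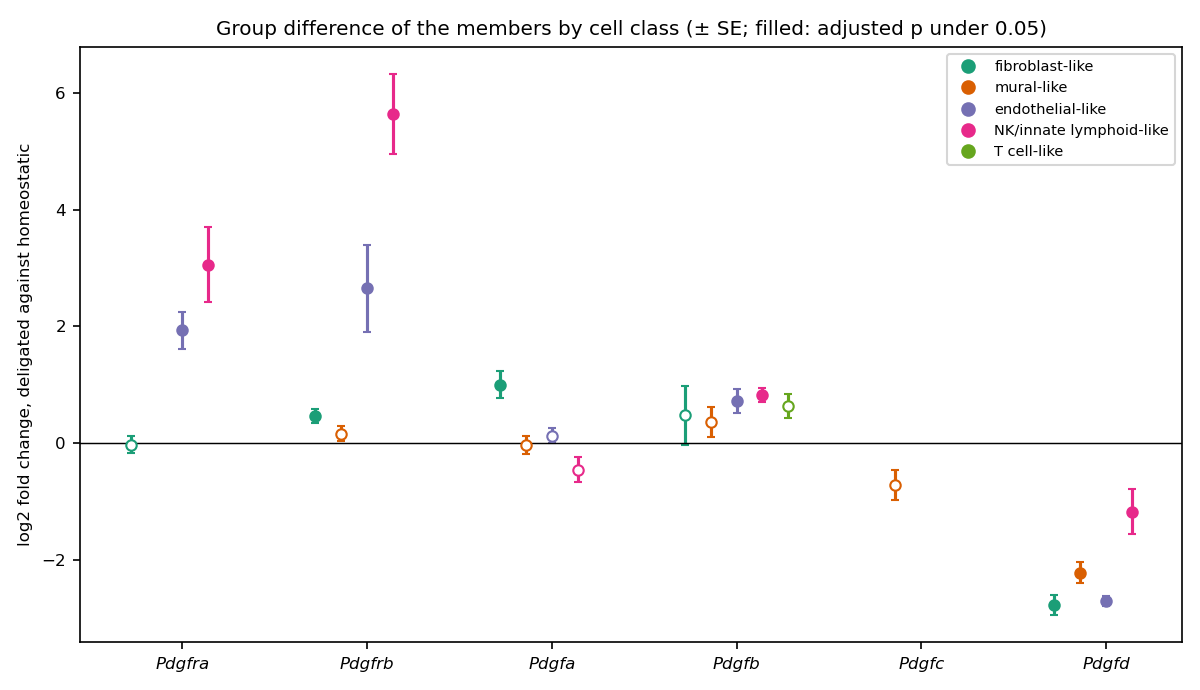
Log2 fold change of each gene, deligated against homeostatic, from the edgeR fit in each class in which it could be tested (2 libraries a group); bars are standard errors and filled points passed an adjusted p of 0.05. Pdgfd is lower in fibroblast-like, mural-like, endothelial-like and NK/innate lymphoid-like cells, Pdgfb is higher in endothelial-like and NK/innate lymphoid-like cells, and the high points for the receptors in endothelial-like and NK/innate lymphoid-like cells rest on levels of at most 5.99 CPM, 3 of them on counts that met the minimum through the deligated libraries alone.

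In the cells with the highest level of each receptor, no difference between the groups passed the threshold. Pdgfra in fibroblast-like cells, at the levels given above, averaged 1235 ± 257 CPM (SD, n = 2) in deligated and 1308 ± 57.3 CPM (SD, n = 2) in homeostatic libraries, a log2 fold change of -0.03 (SE 0.14, adjusted p = 0.90 by edgeR). Pdgfrb in mural-like cells averaged 850.5 ± 47.7 against 760 ± 57.7 CPM (SD, n = 2 each), a log2 fold change of 0.16 (SE 0.13, adjusted p = 0.54 by edgeR). Pdgfrb in fibroblast-like cells rose, from 240 ± 4.81 to 317 ± 22.3 CPM (SD, n = 2 each) and by 0.46 on the log2 scale (SE 0.12, adjusted p = 0.022 by edgeR), with both deligated libraries above both homeostatic ones. Summed mural markers in these cells were also higher, at 439 and 500 against 341 and 305 CPM for the pericyte list and 383 and 365 against 226 and 257 CPM for the smooth muscle list, and their part in the rises of Pdgfrb and Pdgfa in fibroblast-like cells was not tested. Leaving out either homeostatic library ended that call (adjusted p = 0.23 and 0.24 by edgeR), at a log2 fold change of 0.46 and 0.45. The rise of Pdgfrb in fibroblast-like cells was not shown to differ from its difference in mural-like cells (difference of log2 fold changes -0.42, SE 0.14, interaction adjusted p = 0.21 by edgeR).

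Outside their own cells the receptors gave few UMIs, and these were more frequent in the deligated libraries. Endothelial-like cells held 53, 100, 17 and 19 Pdgfra UMIs (3.68, 5.99, 1.19 and 1.37 CPM) and 15, 72, 6 and 6 Pdgfrb UMIs (1.04, 4.32, 0.421 and 0.433 CPM). The edgeR log2 fold change of Pdgfra was 1.93 (SE 0.31, adjusted p = 0.0056). A further 11, 45, 1 and 4 Pdgfra UMIs and 26, 47, 0 and 1 Pdgfrb UMIs lay in NK/innate lymphoid-like cells. Summed fibroblast markers in these cells moved the same way: the 10 genes gave 45.9, 129, 14.5 and 15.6 CPM in endothelial-like cells and 58.0, 126, 12.3 and 13.9 CPM in NK/innate lymphoid-like cells. The 9 pericyte markers gave 46.8, 50.5, 19.9 and 15.9 CPM in endothelial-like cells and 54.0, 59.1, 13.0 and 12.2 CPM in NK/innate lymphoid-like cells, of which 0, 0, 5 and 4 were at 0 in the latter. The part of RNA from fibroblast-like and mural-like cells in these receptor values was not tested.

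Pdgfa, the ligand of the alpha receptor, was highest in Schwann-like cells, the glial cells of peripheral nerves, at 559 and 848 CPM in the deligated and 538 and 719 CPM in the homeostatic libraries, from 24, 61, 34 and 32 cells. Summed erythroid markers lay at 19160 CPM in the Schwann-like cells of deligated 1, against 304 to 719 CPM in those of the other libraries. Summed acinar markers lay at 13980 CPM in those of homeostatic 1, against 687, 422 and 3418 CPM in deligated 1, deligated 2 and homeostatic 2. The part of either in the levels was not tested. Mural-like cells followed at 324, 336, 314 and 361 CPM, below the Schwann-like level in 4 of 4 libraries, with the smooth muscle-like cluster at 327 to 384 CPM and the pericyte-like cluster at 257 to 292 CPM. Epithelial-like cells gave 259, 106, 19.0 and 32.0 CPM, above macrophage-like cells in the deligated and below them in the homeostatic libraries. Among them the cluster with myoepithelial and basal markers lay at 290 CPM in deligated 1 and at 220 and 291 CPM in the homeostatic libraries (deligated 2 held under 20 such cells), whereas duct-like cells of homeostatic glands lay at 33.4 and 36.5 CPM and acinar-like cells at 3.86 and 2.61 CPM. Macrophage-like cells gave 31.9 to 45.1 CPM, and arterial endothelial-like cells 58.2, 47.4, 35.9 and 41.9 CPM against 5.67 to 9.44 CPM in capillary endothelial-like cells.

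Pdgfa came from several classes. Mural-like cells held 61.6% and 51.6% of its UMIs in the deligated but 21.7% and 21.9% in the homeostatic libraries, while they made up 7.41% and 5.78% against 1.17% and 0.963% of cells. Epithelial-like cells held 6.13% and 2.50% against 20.4% and 25.3%, and macrophage-like cells 0.497% and 1.28% against 14.1% and 12.1%. These shares move with the share of each class among the cells retained: with stricter cells mural-like cells held 40.1%, 33.1%, 12.6% and 7.72%. Within mural-like cells the difference in Pdgfa did not pass the threshold (log2 fold change -0.04, SE 0.15, adjusted p = 0.91 by edgeR). In fibroblast-like cells it was low but rose, from 12.0 and 11.2 CPM (22 and 20 UMIs) to 19.8 and 24.5 CPM (93 and 158 UMIs), by 1.00 on the log2 scale (SE 0.23, adjusted p = 0.013 by edgeR). That call was lost without either homeostatic library (adjusted p = 0.078 and 0.086 by edgeR) and under DESeq2 (adjusted p = 0.16), at log2 fold changes of 0.95 to 1.03. Endothelial-like cells differed by 0.13 (SE 0.13, adjusted p = 0.47 by edgeR) and NK/innate lymphoid-like cells by -0.46 (SE 0.22, adjusted p = 0.14 by edgeR).

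**Figure D4:**
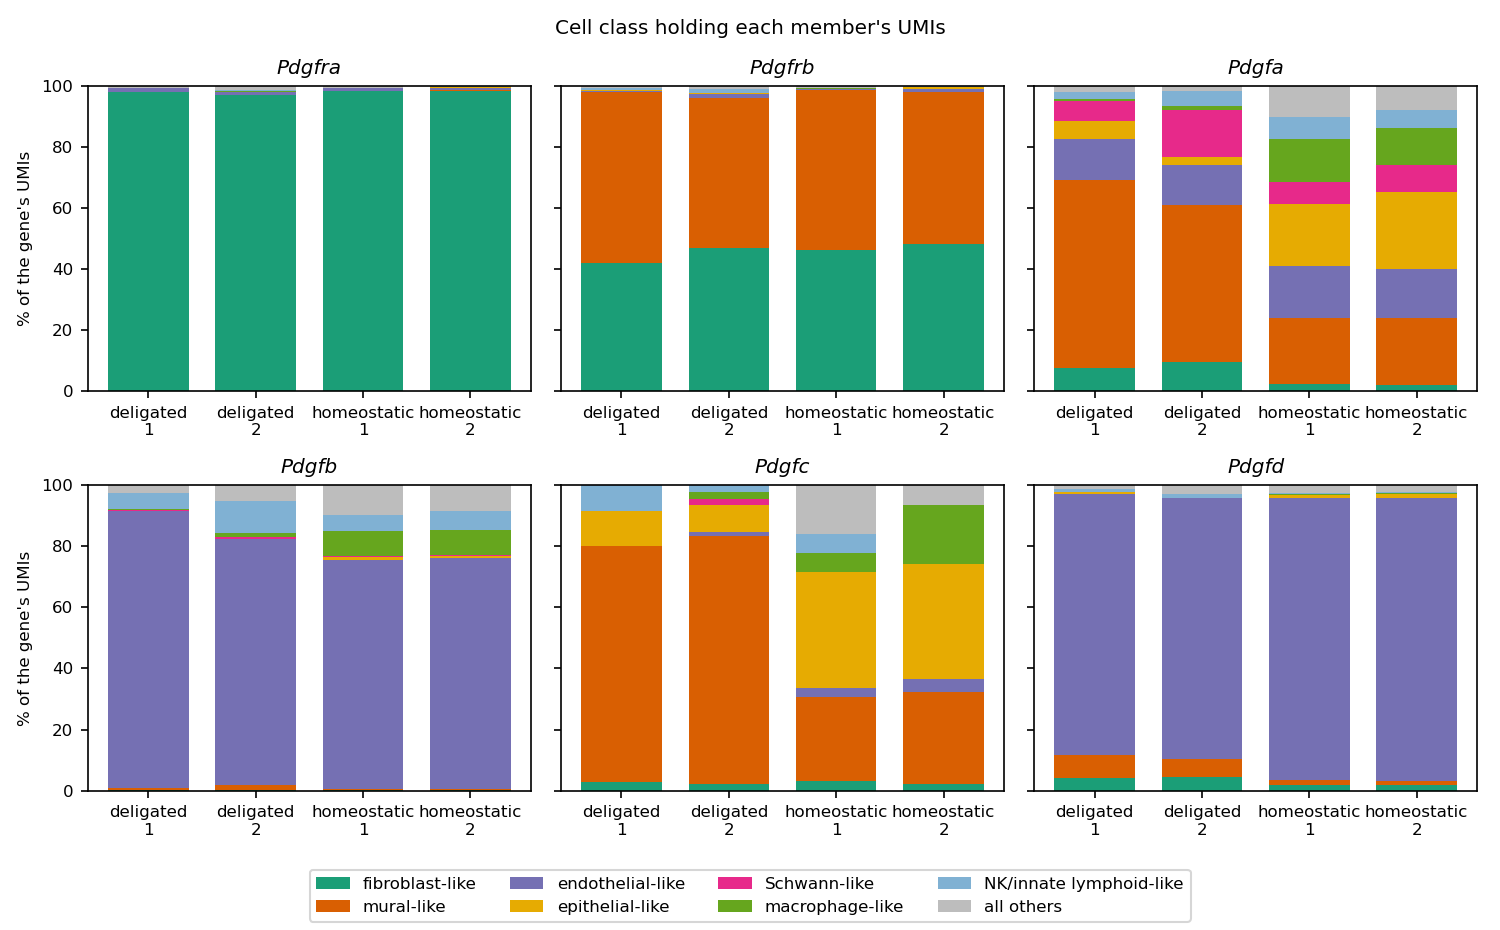
Share of each gene's UMIs, in % of its UMIs over all retained cells of a library, that lay in each cell class; each bar is 1 library. Fibroblast-like cells hold at least 96.9% of Pdgfra, endothelial-like cells 75.2% to 90.5% of Pdgfb and 85.5% to 92.8% of Pdgfd, and the sources of Pdgfa and Pdgfc differ between the groups along with the share of mural-like and epithelial-like cells.

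Pdgfb, the ligand of both receptors, came mainly from endothelial-like cells and was higher there in the deligated libraries. Endothelial-like cells gave 680 and 464 CPM (deligated) and 358 and 354 CPM (homeostatic), and held 90.5%, 80.7%, 75.2% and 75.8% of all Pdgfb UMIs. Arterial endothelial-like cells lay at 757, 571, 416 and 409 CPM, capillary at 709, 473, 361 and 355 CPM and venous at 294, 179, 107 and 109 CPM, so that the venous cells were lowest in each library and each population was higher in both deligated libraries. Over all endothelial-like cells the rise was 0.72 on the log2 scale (SE 0.20, adjusted p = 0.038 by edgeR). It was 1.02 without deligated 2 and 0.36 without deligated 1. The call was lost without either homeostatic library (adjusted p = 0.10 and 0.098 by edgeR) and after removal of the trend of fold change on intron length (0.63, adjusted p = 0.064).

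NK/innate lymphoid-like cells, at a lower level, also held more Pdgfb in the deligated libraries, with 92.6 and 78.5 against 50.9 and 51.7 CPM. Their rise of 0.82 (SE 0.12, adjusted p = 0.0016 by edgeR) passed the threshold under all 14 alternatives run. In T cell-like cells Pdgfb lay at 38.6, 38.5, 27.6 and 26.3 CPM, a log2 fold change of 0.64 (SE 0.20, adjusted p = 0.070 by edgeR), and the difference of this change from that in NK/innate lymphoid-like cells was -0.11 (SE 0.22, interaction adjusted p = 0.95 by edgeR). Macrophage-like cells gave 234, 223, 175 and 182 CPM and Schwann-like cells 222, 213, 112 and 170 CPM; neither class had enough cells in every library for the test. Mural-like cells gave 40.0, 56.0, 39.7 and 34.7 CPM (log2 fold change 0.36, SE 0.25, adjusted p = 0.46 by edgeR). Fibroblast-like cells, in which both receptors were seen, held the least Pdgfb of the 8 classes, at 2.76, 4.5, 2.18 and 3.35 CPM. A cluster with erythroid markers, left out of the ranking because the protocol depletes red blood cells, lay at 382, 241, 128 and 126 CPM from 23, 109, 160 and 155 cells. The summed endothelial markers lay at 203, 284, 275 and 215 CPM in NK/innate lymphoid-like cells, with neither group above the other. The arterial markers lay at 9.48, 10.7, 6.81 and 4.63 CPM there, and the capillary markers at 74.8, 158.9, 221.8 and 161.5 CPM. The part of RNA from endothelial-like cells in the Pdgfb values of NK/innate lymphoid-like cells was not tested.

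Pdgfc, a second ligand of the alpha receptor, was the scarcest member, with 71, 91, 95 and 93 UMIs in whole libraries. Mural-like cells had the highest mean level, though epithelial-like cells were above them in deligated 1 (28.0 CPM, 8 UMIs). They lay at 23.9 and 29.4 CPM (55 and 74 UMIs) in the deligated and 41.2 and 46.2 CPM (26 and 28 UMIs) in the homeostatic libraries, and within them the smooth muscle-like cluster lay at 31.7, 42.1, 58.9 and 57.1 CPM against 4.86 to 13.3 CPM in the pericyte-like cluster. Myoepithelial and basal-like cells reached 33.6 CPM in deligated 1 and 56.8 and 68.0 CPM in the homeostatic libraries, from 8, 8 and 25 UMIs. Mural-like cells were the only class in which Pdgfc could be tested, with a log2 fold change of -0.72 (SE 0.25, adjusted p = 0.12 by edgeR). After removal of the intron-length trend that value was -0.02 (adjusted p = 0.98). Mural-like cells held 77.5% and 81.3% of Pdgfc UMIs in the deligated and 27.4% and 30.1% in the homeostatic libraries, where epithelial-like cells held 37.9% and 37.6%. With stricter cells, which left 24, 33, 79 and 80 Pdgfc UMIs, the mural-like share was 41.7%, 57.6%, 2.53% and 2.5%.

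Pdgfd, the ligand of the beta receptor, fell in endothelial-like, fibroblast-like and mural-like cells. Endothelial-like cells gave 67.4 and 76.1 CPM (deligated) and 490 and 466 CPM (homeostatic), and held 85.5% to 92.8% of its UMIs. Arterial endothelial-like cells were highest in each library, at 102, 125, 903 and 786 CPM, above capillary (66.1, 74.4, 437 and 429 CPM) and venous cells (38.9, 31.0, 232 and 244 CPM). Mural-like cells gave 37.0 and 33.8 against 171 and 158 CPM and fibroblast-like cells 9.77 and 10.4 against 78.4 and 67.1 CPM. The libraries of the 2 groups did not overlap in any of these 3 classes.

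On the log2 scale Pdgfd fell by 2.72 in endothelial-like cells (SE 0.089, adjusted p = 2.7e-05 by edgeR), by 2.79 in fibroblast-like cells (SE 0.17, adjusted p = 1.2e-05) and by 2.22 in mural-like cells (SE 0.17, adjusted p = 5.2e-06). The changes were not shown to differ between these classes: the differences were 0.07 (SE 0.17, interaction adjusted p = 0.87 by edgeR) for fibroblast-like less endothelial-like, 0.46 (SE 0.18, adjusted p = 0.48) for mural-like less endothelial-like and 0.43 (SE 0.23, adjusted p = 0.46) for mural-like less fibroblast-like cells. At 2.00, 1.39, 4.82 and 3.04 CPM in NK/innate lymphoid-like cells, Pdgfd fell by 1.18 (SE 0.39, adjusted p = 0.049 by edgeR), a call that 9 of 13 alternatives ended.

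The long introns of Pdgfd bear on this result, because genes with long introns were lower in the deligated libraries as a body and each group was counted with its own software version. Among genes with over 100 kb of intron the median log2 fold change was -0.85 in endothelial-like (1578 genes), -1.02 in fibroblast-like (1517 genes), -0.71 in mural-like (1256 genes) and -1.32 in NK/innate lymphoid-like cells (1326 genes). Genes with at most 2 kb of intron had medians of 0.22, 0.31, 0.20 and 0.33 in the same order. Pdgfd lay below most of the long genes: 13.5%, 11.5% and 9.24% of them were at or below its value in endothelial-like, fibroblast-like and mural-like cells, against 54.5% in NK/innate lymphoid-like cells. With the intron-length trend removed, Pdgfd still fell by 1.80 in endothelial-like (edgeR adjusted p = 0.00014), 1.64 in fibroblast-like (adjusted p = 0.0021) and 1.40 in mural-like cells (adjusted p = 0.00055), while in NK/innate lymphoid-like cells the value turned to 0.21 (adjusted p = 0.73). Cell Ranger by default leaves out intronic reads in version 6.0.1 and counts them in version 7.0.0, and whether these defaults were used is not given in the sources used here. What this contributes to the values of Pdgfd and Pdgfc cannot be told apart from the group.

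**Figure D5:**
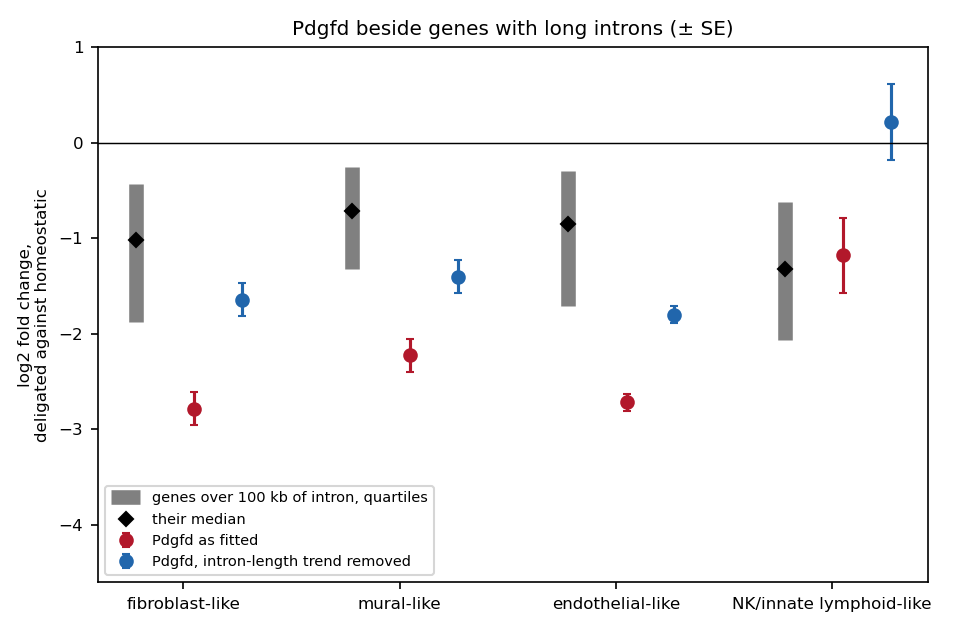
Log2 fold change of Pdgfd, deligated against homeostatic, as fitted (red) and with the trend on intron length removed (blue), with standard errors, beside the quartiles (grey bar) and median (black diamond) of all tested genes with over 100 kb of intron in the same class. Pdgfd lies below the lower quartile of long genes in fibroblast-like, mural-like and endothelial-like cells and inside the quartiles in NK/innate lymphoid-like cells.

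Members were also counted together in single cells. Endothelial-like cells thinned to 1000 UMIs held Pdgfb in 46.8% and 34.7% (deligated) and 28.8% and 28.5% (homeostatic) of cells and Pdgfd in 6.75%, 7.68%, 34.9% and 32.3%. Both ligands were seen in 3.03%, 2.94%, 10.5% and 9.16% of cells, against products of the separate shares of 3.16%, 2.67%, 10.0% and 9.19%, each inside the exact 95% interval of the observed share. Mural-like cells, which carry the beta receptor, held Pdgfrb and Pdgfa together in 14.5%, 15.4%, 17% and 18.5% of cells against products of 14.5%, 15.6%, 18.6% and 16.7%. Without thinning, Pdgfb was seen in 88.7%, 79.0%, 65.9% and 65.2% and Pdgfd in 36.4%, 30.8%, 68.8% and 68.2% of endothelial-like cells, at median depths of 5819, 4396, 3621.5 and 3623 UMIs. In fibroblast-like cells, Pdgfb was seen in 0.287%, 0.29%, 0% and 0% of cells at 1000 UMIs.

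The group differences of 2 members differed between endothelial-like and fibroblast-like cells, beside 4.95% of 14233 genes tested in that comparison. Pdgfra had a change 1.80 lower on the log2 scale in fibroblast-like cells (difference -1.80, SE 0.22, interaction adjusted p = 0.00094 by edgeR), where the endothelial-like level was at most 5.99 CPM. Pdgfa had a change 1.02 higher in fibroblast-like cells (SE 0.26, interaction adjusted p = 0.045 by edgeR), from 11.2 to 24.5 CPM there and 10.7 to 12.8 CPM in endothelial-like cells. That call was lost without deligated 2 (adjusted p = 0.075), without either homeostatic library (adjusted p = 0.19 and 0.26) and with DESeq2's size factors (adjusted p = 0.080), at differences of 0.88, 1.13, 0.92 and 0.89. Between fibroblast-like and mural-like cells the Pdgfa difference was -1.16 (SE 0.24, adjusted p = 0.055), where 0.658% of genes passed. Between endothelial-like and mural-like cells the Pdgfa difference was -0.20 (SE 0.16, adjusted p = 0.81), where 0.662% of genes passed.

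Genes that process PDGFs or pass on their signal were read from a list of 45. Of the 42 tested in endothelial-like cells, 9 were higher and 12 lower in the deligated libraries, where 12.8% of all genes were higher and 22.3% lower, and the list's median log2 fold change was -0.07 against 0.00 for all genes. Of the 43 tested in fibroblast-like cells, 7 were higher and 12 lower (8.15% and 17.5% of all genes), with a median of -0.15 against 0.01. Of the 39 tested in mural-like cells, 4 were higher and 4 lower (1.39% and 6.81%), with a median of -0.07 against 0.01. The higher genes of endothelial-like cells include 2, Myc and Pcsk6, and the lower genes of mural-like cells 1, Pcsk5, that reached the minimum count in both libraries of the higher group only, so that a difference was built into their selection. With the intron-length trend removed the splits became 13 higher and 5 lower, 9 and 7, and 5 and 2, beside 1490 and 2223 of 13133 genes in endothelial-like, 840 and 982 of 11490 in fibroblast-like and 155 and 267 of 9772 in mural-like cells. Many of the lower genes have long introns, among them Pcsk5 with 391 kb, Cblb with 166 kb and Ptprj with 143 kb.

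The higher genes were led by early response genes, which PDGF and many other stimuli, tissue dissociation among them, are known to induce. Of the 5 tested in endothelial-like cells 4 passed the threshold upwards, Myc not being counted for the reason given above, where 12.8% of all genes did, as did 4 of 7 in fibroblast-like cells (8.15% of all genes) and all 4 in mural-like cells (1.39%). So did 4 of 5 in NK/innate lymphoid-like cells (15.8% of all genes) and 4 of 5 in T cell-like cells (4.19%). Egr1, a transcription factor of this group, lay at 424 and 471 against 172 and 161 CPM in endothelial-like cells (log2 fold change 1.45, SE 0.085, adjusted p = 0.00014 by edgeR), and at 143 and 196 against 23.8 and 41.3 CPM in mural-like cells (2.37, SE 0.25, adjusted p = 6.5e-05). Fos, a partner in the AP-1 factor, lay at 487 and 508 against 218 and 173 CPM in fibroblast-like cells (1.41, SE 0.14, adjusted p = 0.00015). Junb (308 and 448 against 157 and 168 CPM) and Egr1 (337 and 342 against 212 and 207 CPM) rose there too. Furin, a protease that activates PDGF-A and PDGF-B, rose in endothelial-like cells from 39.7 and 40.1 to 57.0 and 60.5 CPM (0.58, SE 0.077, adjusted p = 0.0027), as did Ier2. Plat, the protease that activates PDGF-C, rose in fibroblast-like cells from 130 and 145 to 169 and 231 CPM (0.60, SE 0.16, adjusted p = 0.024), as did the co-receptor Lrp1, from 1053 and 1129 to 1413 and 1440 CPM (0.45, SE 0.11, adjusted p = 0.020). Of these named calls some were lost under at least 1 alternative: the highest adjusted p was 0.44 for Plat, 0.26 for Lrp1 and 0.063 for Egr1 in fibroblast-like cells, and 0.34 for Ier2 and 0.087 for Fos in mural-like cells, whose log2 fold changes were 1.69 and 1.73.

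Among the lower genes were several that relay or dampen receptor signals. The adaptor Gab1 fell in fibroblast-like cells (22.9 and 24.1 against 73.5 and 62.1 CPM, log2 fold change -1.47, SE 0.16, adjusted p = 0.00023 by edgeR), in endothelial-like cells (-1.11, adjusted p = 0.00098) and in mural-like cells (-1.30, adjusted p = 0.0011). Cblb, a ubiquitin ligase that marks activated receptors for breakdown, fell in fibroblast-like (-1.61, adjusted p = 0.00012) and endothelial-like cells (-1.18, adjusted p = 0.0012). Ptprj, a receptor-type phosphatase, fell in the same classes (-2.27 and -1.91), and Stat5b, a transcription factor, in fibroblast-like (-1.36) and mural-like cells (-1.35). Each of these calls was kept with the intron-length trend removed, at smaller sizes such as -0.83 for Gab1 and -0.65 for Cblb in fibroblast-like cells. The trend is an average over genes. What the software version contributes to the value of each of these genes cannot be told apart from the group. Ptpn12, a phosphatase, fell in fibroblast-like cells (-1.05), Pik3cb, a PI3 kinase subunit, in endothelial-like cells (-0.94) and Grb10, an adaptor, in mural-like cells (-0.98). The call on Pcsk5, a protease, was lost with the trend removed in endothelial-like cells (-1.44 to -0.02, adjusted p = 0.92), and that on Grb10 in mural-like cells as well (-0.62, adjusted p = 0.19). The highest adjusted p over the alternatives was 0.055 for Ptpn12 in fibroblast-like and 0.12 for Stat5b in mural-like cells.

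The genes whose levels ran most like each member, by Pearson's correlation of log2(CPM + 1) over 32 sums (8 classes in 4 libraries, 9681 genes considered), differed from member to member. They are given as a description, since the sums share libraries and classes. Pdgfra ran with Dpt (r = 0.97), Srpx and Inmt, and Pdgfrb with Ednra (r = 0.97), the endothelin A receptor, Pcdh18 and Barx1. Pdgfa ran with Pmvk (r = 0.91) and Dtna, and Pdgfb less closely with Atp8a1 (r = 0.84), Sbno2 and Ehd4. Pdgfc ran with Lmod1 (r = 0.90), Ano1 and Myh11, of which Lmod1 and Myh11 belong to the contractile apparatus of smooth muscle and were among the markers that named the smooth muscle-like cluster. Pdgfd ran with Bmp6 (r = 0.92), Ptprk and Kazn. Between the members themselves r reached 0.59 for Pdgfa with Pdgfc, 0.56 for Pdgfra with Pdgfrb and for Pdgfrb with Pdgfc, and was lowest for Pdgfra with Pdgfb at -0.63.

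Over whole libraries, where cells of all classes are summed, the receptors and the ligands Pdgfa and Pdgfb stood higher in the deligated libraries and Pdgfd lower. Pdgfra lay at 156 and 204 against 55.8 and 61.6 CPM and Pdgfrb at 104 and 98.7 against 22.8 and 22 CPM, differences that move with the larger share of fibroblast-like and mural-like cells. Pdgfa lay at 37.2 and 35.6 against 21.5 and 25.1 CPM, Pdgfb at 333 and 208 against 160 and 163 CPM, and Pdgfd at 34.9 and 32.2 against 178 and 175 CPM. The shares of classes among the cells, such as epithelial-like and mural-like cells, differ between the groups and enter the ligand values too. Pdgfc lay at 2.19, 1.97, 2.24 and 2.34 CPM.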

How the data were processed

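The authors deposited, per the file headers, raw UMI counts per gene and barcode, made with Cell Ranger 6.0.1 for the deligated and 7.0.0 for the homeostatic libraries; the submitters' processing notes name Cell Ranger 6.0.1, Seurat and the build mm10. Whether intronic reads or strand were used is not given in the sources used here. Of the gene identifiers, 99.9% matched GENCODE M21, the source of coordinates and intron lengths.

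Cells with at least 300 genes and at most 10% mitochondrial UMIs were kept. Doublets were scored against simulated doublets (50 neighbours) and removed at 0.8% per 1000 cells. Cells of the 4 libraries were clustered together with scanpy 1.11.5 (3000 variable genes without the members, 30 components, 20 neighbours, Leiden resolution 1.0) without batch correction. Clusters were named from fixed marker lists, with scoring details set with the clusters in view; the shares of cells left unnamed were 1.58% and 2.72% (deligated) and 7.20% and 7.55% (homeostatic).

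UMIs were summed per class and library and tested with edgeR 4.0.16 (R 4.3.3; quasi-likelihood, TMM, filterByExpr, Benjamini-Hochberg over all genes of a class); differences between classes were tested with an interaction term and library as a block. Both models were tested on simulated data. Alternatives were DESeq2 1.42.0, DESeq2's size factors, no filter, thinning to 1000 UMIs, stricter cells, Leiden resolution 2.0, no doublet removal, removal of a smooth trend on intron length, a replicate block and leaving out each library. Named pathway genes are up to 5 per direction and class with the smallest adjusted p; most-like genes are the 3 highest correlations among genes of at least 10 CPM, of which 1 is not reported here. The members and lists were chosen with earlier results of these data known. Intervals are exact Clopper-Pearson intervals at 95%, and 0 counts are given the limit of 3 counts.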

Additional observations from a re-analysis of the deposited data

Results flagged for a closer look

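The group difference of Pdgfra was 1.80 lower on the log2 scale in fibroblast-like than in endothelial-like cells (difference -1.80, edgeR interaction adjusted p = 0.00094), and that of Pdgfa was 1.02 higher in fibroblast-like than in endothelial-like cells (edgeR interaction adjusted p = 0.045). Both stand here because the same contrast, deligated against homeostatic, differed between 2 cell classes by a test of the difference itself. For Pdgfra the endothelial-like values rest on 17 to 100 UMIs a library, beside summed fibroblast markers that were also higher in the deligated libraries. For Pdgfa the call was lost without deligated 2 (adjusted p = 0.075 by edgeR), without homeostatic 1 (adjusted p = 0.19), without homeostatic 2 (adjusted p = 0.26) and with DESeq2's size factors (adjusted p = 0.080).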

How the results depend on the processing

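Leaving out each library in turn gave 2 to 4 members past the threshold in NK/innate lymphoid-like cells (4 with all libraries, receptors that met the minimum count through the deligated libraries alone included here), 2 to 4 in endothelial-like cells (4) and 1 to 3 in fibroblast-like cells (3); the lowest counts came without homeostatic 1 and, in the latter 2 classes, also without homeostatic 2. Pathway genes numbered between 12 and 31 in endothelial-like cells (21), between 8 and 25 in fibroblast-like cells (19) and between 5 and 11 in mural-like cells (8), while all genes called ran from 15.8% to 56%, 10.9% to 38.6% and 3.08% to 12.8%, and members whose change differed between classes from 1 to 3 for endothelial-like with fibroblast-like cells (2) and from 0 to 1 for each of them with mural-like cells. Thinning to 1000 UMIs left 1 member in NK/innate lymphoid-like cells and 9 and 4 pathway genes in fibroblast-like and mural-like cells, and DESeq2 left 4 pathway genes in mural-like cells; thinning leaves fewer UMIs, and the cause of the other changes was not tested. With no filter on low counts 2 members passed in T cell-like cells, 13 pathway genes in mural-like cells and 1 member in each comparison with mural-like cells; 1 member passed in T cell-like cells with stricter cells and 2 without doublet removal, and DESeq2's size factors left 1 member for endothelial-like with fibroblast-like cells. Fibroblast-like cells with both receptors were 42.8% (deligated) and 34.3% (homeostatic) at 2000 UMIs, 91.1% and 71.8% without thinning, 77.4% and 45.5% with at least 2 UMIs of each and 16.4% and 12.4% without doublet removal. Mural-like cells with both were 0.706%, 1.26%, 0.111% and 0.191% in the deligated libraries in that order. Their Pdgfrb share was 77.7% and 76.6% at 2000 UMIs, 94.6% and 92.8% without thinning and 87.6% and 82.8% with at least 2 UMIs, and 50.0% in homeostatic libraries without doublet removal.

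Values that changed sign were small or imprecise, apart from Pdgfd in NK/innate lymphoid-like cells, and the cause was not tested. Pdgfra in fibroblast-like cells was 0.016 with no filter, 0.033 with stricter cells, 0.048 without doublet removal, 0.094 with the intron trend removed, 0.0025 under DESeq2 and -0.20 to 0.14 with each library left out. Pdgfb was -0.17 (stricter cells) and -0.40 (no doublet removal) in fibroblast-like and -0.27 (stricter cells) in mural-like cells, and Pdgfa was -0.18 to 0.096 (each library left out) and 0.025 (no doublet removal) in mural-like cells. Pdgfd in NK/innate lymphoid-like cells, which passed the threshold at -1.18 (SE 0.39, adjusted p = 0.049 by edgeR), was 0.21 with the intron trend removed. Among differences between classes, with each library left out Pdgfb gave -0.82 to 0.49 for endothelial-like with fibroblast-like, -0.88 to 0.29 for endothelial-like with mural-like and -0.59 to 0.33 for fibroblast-like with mural-like cells, and Pdgfd gave -0.060 with DESeq2's size factors for endothelial-like with fibroblast-like cells. Pdgfra, too low to be tested in mural-like cells alone, gave -4.40 to 5.57 (-2.11 with all libraries) for endothelial-like and -2.57 to 6.11 (-0.20) for fibroblast-like with mural-like cells, the highest both without homeostatic 2 (SE 7.01 and 3.69). Pdgfc without deligated 1 gave -0.11 for endothelial-like with fibroblast-like cells, and Pdgfd without homeostatic 1 gave 0.31 for NK/innate lymphoid-like with T cell-like cells. Pdgfrb could not be estimated there without homeostatic 2 (-0.10, SE 1562). In the stricter cells, mural-like cells fell under 100 in the homeostatic libraries.

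Deviations of libraries with the same number correlated at -0.144 to 0.0912 by class, so the numbers were not shown to pair the libraries. With a replicate block, 4292, 1367, 3928, 3539 and 929 genes were called in NK/innate lymphoid-like, T cell-like, endothelial-like, fibroblast-like and mural-like cells, against 4921, 1711, 4612, 2946 and 801 without it. A crossed block, chosen after seeing the data, gave 5172, 1716 and 5307 in the first 3. Mural-like and Schwann-like cells are few, and Pdgfc has under 100 UMIs a library, which limits its comparison.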
